A study of Mus musculus with 4 samples.

Results

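The genes described here are 10 members of the Notch pathway as they are read in mouse muscle stem cells: the receptors Notch1, Notch2 and Notch3, the ligands Dll1 and Jag1, the HES and HEY genes Hes1, Hes6, Hey1 and Heyl, and the DNA-binding partner Rbpj. They were chosen by name, 10 of the 31055 features counted, and all 10 had UMIs (unique molecular identifiers, each standing for 1 captured RNA molecule) in every library. Muscle stem cells were sorted for GFP from Tg:Pax7-nGFP mice aged 2 to 4 months, a transgene in which Pax7 regulatory sequence drives nuclear GFP, and were read by droplet single-cell RNA sequencing. Activated cells came from a culture of 4 days (Matrigel coating, growth medium, 3% oxygen), and quiescent cells were processed straight after the sort. The 4 groups were activated cells of extraocular muscle (EOM, the muscles that move the eye), activated cells of the tibialis anterior (TA, at the front of the shin), quiescent EOM cells and quiescent TA cells. All groups carry the same transgene, each group is 1 library, and how many mice were pooled is not given in the sources used here.

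In the Notch pathway a ligand on one cell binds a receptor on its neighbour, the receptor is cut, and its intracellular part enters the nucleus, where it joins Rbpj to switch on HES and HEY genes. In muscle, Notch signalling is known for keeping stem cells quiescent and for holding back differentiation, and its loss lets them differentiate early. Pax7 marks the stem cell, and Myog, the myogenin gene, marks a cell that has entered differentiation.

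The activated EOM, activated TA, quiescent EOM and quiescent TA libraries gave 5563, 4281, 3594 and 2910 cells after filtering, with a median of 21261, 23383, 4662 and 5036 UMIs a cell. In the same order, 20.9%, 24.7%, 11.7% and 40.5% of barcodes had over 10% mitochondrial UMIs, and 73.2%, 70.3%, 84.3% and 55.7% were kept. The 2 quiescent libraries thus differed in quality, and the part of this in their comparison was not tested. Pairs of libraries shared 5 to 12 cell barcodes. Of 12 markers of muscle stem cells, 8 in each activated and all 12 in each quiescent library stood at 5 CPM (UMIs per 1000000 UMIs) or more, against 1, 0, 2 and 2 of 10 endothelial markers in activated EOM, activated TA, quiescent EOM and quiescent TA. The stem cell markers Calcr and Chodl were near 0 in activated cells, at 0.156 CPM or less, and Tek led the endothelial markers at 40.2 CPM in quiescent EOM and 15 CPM in quiescent TA. A level is given as CPM over the summed cells of a pool. With 1 library a group there was no test between groups, and the 95% intervals given are exact Poisson intervals that cover counting error only. A gene was counted as apart when its CPM differed at least 2-fold and reached 5 CPM in either pool. Less RNA of a gene per cell and fewer cells holding it cannot be told apart in a summed level, and levels of different genes were not compared. CPM is a share of all UMIs, and activated cells had several times more UMIs each. A lower CPM in them thus need not mean fewer UMIs of a gene per cell. Notch1 had 3988 UMIs in 5563 activated EOM cells and 1418 in 3594 quiescent EOM cells. Notch2, by contrast, had 825 UMIs in those activated and 1754 in those quiescent cells.

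Promoter windows of Dll1, Hes6 and Notch3 are shown because the levels of these genes went opposite ways across the activated cells. They run from 250 bases before to 50 after a RefSeq start, on GRCm38.p6, 5′ to 3′. Capitals mark CAGCTG, an E-box of the kind that MyoD-family factors bind, or TGGGAA and its reverse complement TTCCCA, the core read by Rbpj.
Dll1 upstream window, chr17:15376883-15377182, minus strand: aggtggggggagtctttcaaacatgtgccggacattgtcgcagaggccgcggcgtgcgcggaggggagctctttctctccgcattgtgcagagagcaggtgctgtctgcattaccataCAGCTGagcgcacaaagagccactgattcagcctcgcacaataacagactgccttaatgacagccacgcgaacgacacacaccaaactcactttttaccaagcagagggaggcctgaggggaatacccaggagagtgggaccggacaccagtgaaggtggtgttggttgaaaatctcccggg
Dll1 second window, chr17:15375774-15376073, minus strand: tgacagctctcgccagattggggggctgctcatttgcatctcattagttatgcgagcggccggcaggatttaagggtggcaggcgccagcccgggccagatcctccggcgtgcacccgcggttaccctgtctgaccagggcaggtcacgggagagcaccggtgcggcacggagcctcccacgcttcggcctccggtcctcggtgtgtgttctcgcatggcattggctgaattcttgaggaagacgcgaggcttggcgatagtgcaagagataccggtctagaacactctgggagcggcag
Hes6 upstream window, chr1:91413989-91414288, minus strand: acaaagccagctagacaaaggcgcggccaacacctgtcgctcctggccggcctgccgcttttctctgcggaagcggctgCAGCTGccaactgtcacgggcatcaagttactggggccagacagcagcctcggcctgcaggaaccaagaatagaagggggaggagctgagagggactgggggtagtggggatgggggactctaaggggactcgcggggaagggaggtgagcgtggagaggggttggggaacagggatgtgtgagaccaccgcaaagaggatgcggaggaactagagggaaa
Hes6 second window, chr1:91413173-91413472, minus strand: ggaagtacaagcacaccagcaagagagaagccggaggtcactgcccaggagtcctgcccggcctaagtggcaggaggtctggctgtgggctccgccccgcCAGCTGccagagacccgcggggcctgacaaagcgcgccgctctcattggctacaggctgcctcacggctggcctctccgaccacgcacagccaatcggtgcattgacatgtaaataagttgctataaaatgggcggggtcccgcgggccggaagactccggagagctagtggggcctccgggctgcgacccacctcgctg
Notch3 window, chr17:32166841-32167140, minus strand: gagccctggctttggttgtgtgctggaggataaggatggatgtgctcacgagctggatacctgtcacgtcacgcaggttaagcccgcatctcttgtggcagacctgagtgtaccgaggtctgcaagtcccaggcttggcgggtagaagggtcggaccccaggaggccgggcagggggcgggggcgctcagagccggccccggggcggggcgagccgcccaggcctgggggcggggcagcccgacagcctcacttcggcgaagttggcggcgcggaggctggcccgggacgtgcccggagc
CAGCTG, which reads the same on both strands, was in the upstream Dll1 window, 132 bases before the start, and in both Hes6 windows, 171 and 150 bases before it. The Dll1 second window and the Notch3 window had no match to either motif. Of 32851 mouse promoter windows of the same length, 16.3% held CAGCTG and 25.6% held TGGGAA or TTCCCA on either strand. RefSeq windows were matched for 7 of the 10 members, with none for Hes1, Hey1 and Heyl. Jag1 had a CAGCTG 82 bases before its start, both Rbpj windows held the Rbpj core but no CAGCTG, and the Notch1 and Notch2 windows held neither motif. A match describes these letters and is not a measured binding site.

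The first comparison asked how the members stood in cultured, activated cells against quiescent cells of the same muscle. As shares of all UMIs, all 3 receptors were lower in activated cells of both muscles, Jag1 and Heyl were lower too, and Hes6 was many times higher. In EOM, 5 of the 10 members were at least 2-fold lower and 1 was higher. In TA, 6 were lower and 2 were higher. Large shifts were common at this step: 25.3% of all genes tested passed the same call as lower and 25.4% as higher in activated EOM, with 24.7% lower and 29.2% higher in activated TA. The median log2 ratio of the members was -0.88 in EOM and -1.76 in TA, against 0.06 and 0.14 for all genes tested.

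Among the receptors, Notch2 stood at 6.72 CPM in activated EOM and 6.07 CPM in activated TA, against 100.4 CPM in quiescent EOM and 61.6 CPM in quiescent TA. That is 0.0669-fold in EOM (95% interval 0.0615 to 0.0727) and 0.0985-fold in TA (0.0889 to 0.109), and the 2 activated libraries could not be told apart for this gene by counting error. Notch3 had 29.7 CPM in activated EOM and 10.8 CPM in activated TA, against 148 CPM in quiescent EOM and 152 CPM in quiescent TA. Its levels were alike in the quiescent libraries, within counting error, and apart in the activated ones, so that the fold of activation was 0.20 in EOM (0.190 to 0.210) and 0.0707 in TA (0.0657 to 0.0760). Notch1, the most studied receptor of the family, had 32.5 CPM in activated EOM and 17.0 CPM in activated TA, against 81.2 CPM in quiescent EOM and 62.8 CPM in quiescent TA. Its fold was 0.400 in EOM (0.377 to 0.425) and 0.271 in TA (0.25 to 0.294), and the 4 libraries stood in the order quiescent EOM, quiescent TA, activated EOM, activated TA with no neighbours overlapping. The EOM fold of Notch1 was 0.527 with TMM scaling (edgeR's trimmed mean factors), which no longer reaches 2-fold.

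The ligands went opposite ways. Dll1, a ligand known to be presented by differentiating myoblasts, had 20.5 CPM in activated EOM and 29.2 CPM in activated TA, against 14.8 CPM in quiescent EOM and 5.01 CPM in quiescent TA. It was 1.38-fold higher in EOM (1.22 to 1.58), a direction that turned to 0.845-fold in the 612 activated and 263 quiescent cells with at most 5% mitochondrial UMIs, and 5.83-fold higher in TA (4.65 to 7.41). Jag1, a ligand of the Jagged class, had 3.71 CPM in activated EOM and 1.34 CPM in activated TA, against 28.1 CPM in quiescent EOM and 45.3 CPM in quiescent TA. Jag1 was thus lower in activated cells of both muscles, at 0.132-fold in EOM (0.116 to 0.15) and 0.0295-fold in TA (0.0244 to 0.0355).

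The HES and HEY genes did not move as a group. Hes6, a HES relative known to counteract Hes1 and to favour differentiation, had 461 CPM in activated EOM and 863 CPM in activated TA, against 24.0 CPM in quiescent EOM and 9.05 CPM in quiescent TA. It was 19.2-fold higher in EOM (17.5 to 21.2) and 95.3-fold higher in TA (80.7 to 113), the largest folds among the members. Heyl, a HEY gene known as a Notch target in muscle stem cells, had 26.4 CPM in activated EOM and 14.0 CPM in activated TA, against 71.9 CPM in quiescent EOM and 48.1 CPM in quiescent TA. Its folds of 0.367 (0.344 to 0.393) in EOM and 0.292 (0.267 to 0.319) in TA were of similar size in the 2 muscles. Hey1, its relative, had 23.9 CPM in activated EOM and 8.74 CPM in activated TA, against 33.5 CPM in quiescent EOM and 33.1 CPM in quiescent TA. Hey1 was at 0.713-fold (0.653 to 0.781) in EOM and at 0.264-fold (0.237 to 0.295) in TA, and the difference between the muscles was not tested.

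Hes1, a repressor that many signals besides Notch switch on, had 47.9 CPM in activated EOM and 39.8 CPM in activated TA, against 40.4 CPM in quiescent EOM and 27.4 CPM in quiescent TA. Its folds were 1.19 in EOM and 1.45 in TA, and the direction did not hold under every choice: Hes1 was at 0.980-fold in EOM as a mean over cells, and at 0.964-fold in EOM and 0.527-fold in TA among cells with at most 5% mitochondrial UMIs, of which quiescent TA had 47. Without the 20% of cells with the fewest UMIs, the TA fold of Hes1 was 2.03. Rbpj had 76.0 CPM in activated EOM and 91.8 CPM in activated TA, against 74.3 CPM in quiescent EOM and 87.5 CPM in quiescent TA. The 2 folds of Rbpj, 1.02 (0.965 to 1.08) and 1.05 (0.990 to 1.11), both had intervals that hold 1, and at the 5% limit the TA fold was 0.740.

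**Figure D1:**
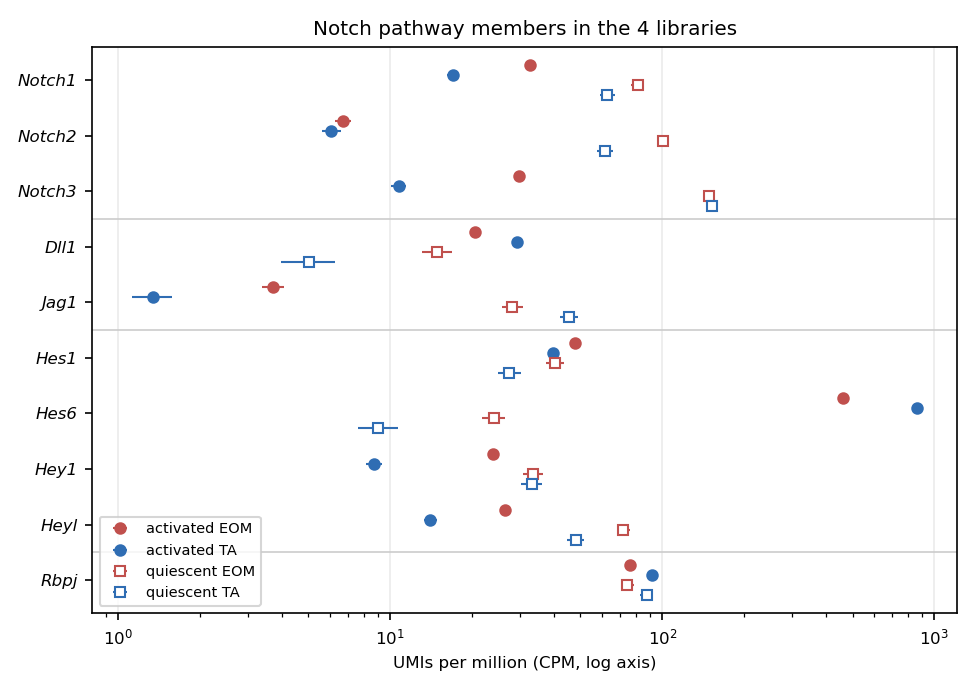
Level of each of the 10 members in CPM (log axis) in activated EOM and TA (filled circles) and quiescent EOM and TA (open squares), with exact 95% Poisson intervals that cover counting error. Receptors and Jag1 stand to the right in quiescent cells, Hes6 stands far to the right in activated cells at 461 and 863 CPM, and Rbpj lies between 74.3 and 91.8 CPM in all 4.

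Another 73 genes of the pathway were followed, and 56 of them reached 5 CPM in each muscle. Of these, 21 were lower and 6 higher in activated EOM, against 25.3% and 25.4% of all genes tested. In activated TA, 16 were lower and 8 higher, against 24.7% and 29.2% of all genes tested. Their median log2 ratio was -0.46 in EOM and -0.43 in TA, against 0.06 and 0.14 for all genes tested. Tle4, a Groucho-type corepressor that HES proteins recruit, had 3.23 CPM in activated EOM against 101 CPM in quiescent EOM, and 3.31 CPM in activated TA against 78.8 CPM in quiescent TA. Bhlhe40, a bHLH repressor related to the HES family, had 4.95 CPM in activated EOM against 75.8 CPM in quiescent EOM, and 3.43 CPM in activated TA against 68.0 CPM in quiescent TA. Numb, an inhibitor of Notch receptors, was at 0.162-fold in activated over quiescent EOM and 0.191-fold in TA. Psen2, a presenilin of the protease that cuts the receptor, was at 0.407-fold in EOM and 0.166-fold in TA. Poglut1, an enzyme that adds sugars to Notch receptors, was 1.56-fold higher in EOM and 2.40-fold higher in TA. Among ligands outside the 10 members, Jag2 had 13.7 CPM in activated EOM and 18.9 CPM in activated TA, against 1.2 CPM in quiescent EOM and 0.456 CPM in quiescent TA. This is the reverse of Jag1, which was lower in activated cells. Lfng, a Fringe enzyme that alters how receptors answer Delta and Jagged ligands, had 15.2 CPM in activated EOM and 7.51 CPM in activated TA, against 0.630 and 0.586 CPM in quiescent EOM and TA. Jag2 and Lfng were named after their values were seen.

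The second comparison asked whether receptor and target RNA and ligand RNA lie in different activated cells. Each activated cell of at least 5000 UMIs was thinned to 5000 and classed by Pax7 and Myog. Of 5411 activated EOM cells, 50% held Myog only, 17.8% Pax7 only, 8.45% both and 23.7% neither. Of 4152 activated TA cells, 60.6% held Myog only, 10.0% Pax7 only, 11.1% both and 18.3% neither. At the same depth Myog was in 0.208% of 1440 quiescent EOM cells and 0.336% of 1489 quiescent TA cells, but those libraries held 4.87 and 8.14 CPM of Myog against 1487 and 1552 CPM in activated EOM and TA. The share that free Myog RNA gives in the activated libraries was not measured. Median depth was 20783 UMIs in Myog-only and 22298 UMIs in Pax7-only EOM cells, and 23012 and 24917 UMIs in the TA cells of those states.

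Dll1, Hes6 and Rbpj were higher in Myog-only cells of both muscles, while Notch3, Jag1, Hes1, Hey1 and Heyl were lower. In EOM, 3 of the 10 members were at least 2-fold higher and 5 lower in Myog-only cells, against 6.70% and 7.35% of all genes. In TA, 3 were higher and 5 lower, against 4.75% and 3.05% of all genes. The 3 higher members were Dll1, Hes6 and Rbpj in each muscle. The 5 lower ones were Notch3, Jag1, Hes1, Hey1 and Heyl in EOM, and Notch1, Notch3, Hes1, Hey1 and Heyl in TA, where Jag1 at 0.340-fold was under 5 CPM in both pools and not counted.

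Dll1 had 37.3 CPM in Myog-only cells, against 2.52 CPM in Pax7-only cells, of activated EOM, and 39.1 CPM against 8.46 CPM in TA. The folds were 14.8 in EOM (11.4 to 19.7) and 4.63 in TA (3.75 to 5.77), and Myog-only cells held 87.8% of the Dll1 UMIs of activated EOM and 78.9% of those of activated TA, with 48.1% and 58.9% of all UMIs. Hes6 had 757 CPM in Myog-only cells against 150.1 CPM in Pax7-only cells of EOM, and 1050.3 CPM against 456 CPM in TA. Its folds were 5.04 (4.87 to 5.22) and 2.30 (2.24 to 2.37), and its level in Pax7-only cells differed more between the muscles than its level in Myog-only cells. Rbpj had 106 CPM in Myog-only cells against 43.4 CPM in Pax7-only cells of EOM, and 110.3 CPM against 50.4 CPM in TA, so the partner of the receptor was read more highly in the cells where receptor RNA was lower.

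Notch3 had 12.1 CPM in Myog-only cells against 52.6 CPM in Pax7-only cells of EOM, and 5.38 CPM against 27.8 CPM in TA. Its folds were 0.230 (0.209 to 0.253) and 0.194 (0.165 to 0.227). In EOM that interval overlapped the one of Hey1 (0.213 to 0.263). Notch1 had 24.9 CPM in Myog-only cells against 43.3 CPM in Pax7-only cells of EOM (0.574-fold), and 12.7 CPM against 28.3 CPM in TA (0.449-fold). Notch2 was at 0.511-fold in EOM, with 4.71 CPM in Myog-only cells against 9.21 CPM in Pax7-only cells, and at 0.717-fold in TA, with 5.20 CPM against 7.25 CPM. All 3 receptors were thus lower in Myog-only cells, and the EOM intervals of Notch1 (0.529 to 0.623) and Notch2 (0.425 to 0.615) overlapped. Among cells without Mki67 or Top2a both passed 2-fold in EOM, Notch1 at 0.396-fold and Notch2 at 0.261-fold, and in TA Notch2 was at 0.437-fold. The Notch2 fold of EOM was also 0.386 on thinned UMIs alone.

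Heyl had 12.1 CPM in Myog-only cells against 44.9 CPM in Pax7-only cells of EOM (0.269-fold), and 7.73 CPM against 28.2 CPM in TA (0.274-fold). Hey1 had 9.92 CPM in Myog-only cells against 41.9 CPM in Pax7-only cells of EOM (0.237-fold), and 5.48 CPM against 16.1 CPM in TA (0.341-fold). Hes1 had 24.1 CPM in Myog-only cells against 74.3 CPM in Pax7-only cells of EOM (0.324-fold), and 26.6 CPM against 69.7 CPM in TA (0.382-fold). These 3 targets were lower together, and cells that held both genes lay between, with 39.3 CPM of Heyl in EOM and 22.2 CPM in TA. Among cells with at most 5% mitochondrial UMIs, Hes1 was at 0.60-fold in EOM and 0.689-fold in TA, and in TA Notch1 (0.562-fold), Hes6 (1.88-fold) and Rbpj (1.92-fold) also missed the call.

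**Figure D2:**
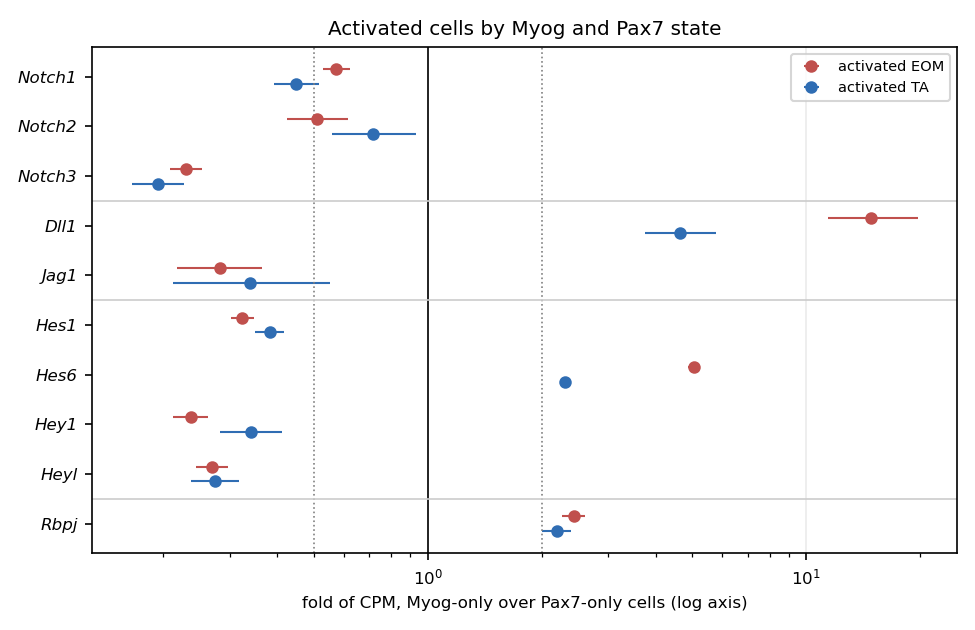
Fold of CPM of Myog-only over Pax7-only activated cells (log axis) for each member in EOM and TA, with exact 95% intervals that cover counting error; dotted lines mark 2-fold. Dll1, Hes6 and Rbpj lie to the right of 1 in both muscles and the other 7 members to its left.

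Followed over the Myog level of a cell, the members differed step by step. At 0, 1, 2 to 3, 4 to 7 and 8 or more Myog UMIs of 5000, Dll1 in EOM had 3.06, 5.35, 19.4, 36.8 and 45.5 CPM, and in TA 9.45, 14.0, 24.4, 41.2 and 48.4 CPM. Notch3 in EOM had 46.9, 43.0, 28.7, 15.8 and 5.04 CPM, and in TA 20.4, 13.5, 11.4, 7.73 and 2.71 CPM. Hes1 in EOM had 72.1, 69.7, 59.9, 41.9 and 8.60 CPM, and in TA 61.6, 62.2, 48.8, 38.3 and 12.4 CPM. Dll1 was thus already several times higher at 2 to 3 Myog UMIs than at 0 in EOM, while most of the Hes1 difference lay in the last step. Cells with 8 or more Myog UMIs against cells with none gave 0.112-fold for Heyl in EOM and 0.187-fold in TA. In that comparison 3 members were higher and 6 lower in EOM, against 8.42% and 13.2% of all genes, and 3 higher and 5 lower in TA, against 6.63% and 7.61%. Pax7 itself had 9.71 CPM in the EOM cells with 8 or more Myog UMIs, against 119.9 CPM in those with none.

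**Figure D3:**
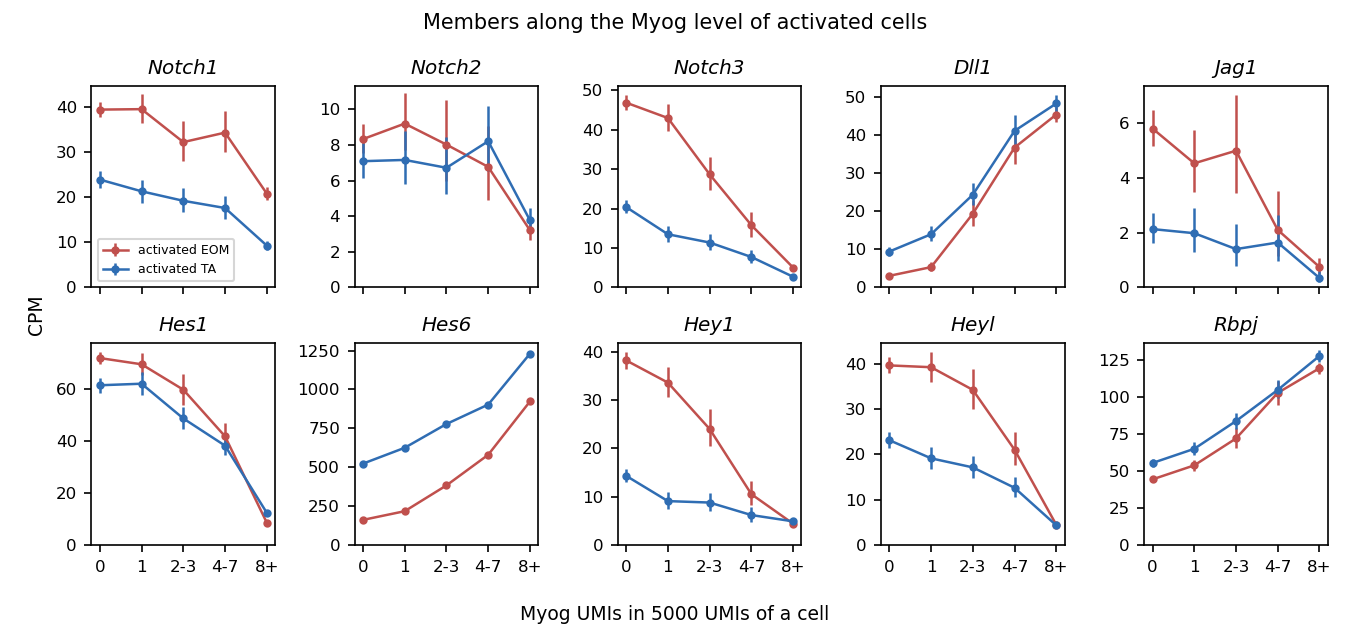
CPM of each member (linear axes from 0, 1 panel a gene) in activated EOM and TA cells grouped by Myog UMIs among 5000, with exact 95% Poisson intervals. Dll1, Hes6 and Rbpj climb with Myog in both muscles, and Notch3, Hes1, Hey1 and Heyl decline to between 2.71 and 12.4 CPM in the last group.

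Dll1 did not keep climbing with differentiation. When Myog-holding cells were cut into tertiles by 11 markers of differentiating muscle, a split chosen after the data were seen, Dll1 in EOM had 16.3 CPM in the low, 54.5 CPM in the middle and 32.8 CPM in the high tertile. In TA it had 25.6, 48.5 and 39.5 CPM from the low to the high tertile. Hes6, by contrast, was highest in the high tertile, with 315, 740.1 and 1074 CPM in EOM and 731, 986 and 1337 CPM in TA. Hes1 had 60.4, 20.3 and 3.21 CPM in EOM and 50.5, 30.9 and 7.81 CPM in TA, so the tertile with most Dll1 still held Hes1.

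Single cells were then sorted by which of the genes they held. Of the 539 activated EOM cells with a Dll1 UMI at 5000 UMIs, 92.6% held Myog, against 58.5% of all cells. Of the 495 such TA cells, 88.5% held Myog, against 71.7% of all. Of cells with a Notch3 UMI, 31.7% of 710 held Myog in EOM and 43.9% of 212 in TA, so holders of Dll1 and of Notch3 stood on opposite sides of the share of all cells. Jag1 holders, though of a ligand, stood on the side of Notch3, with Myog in 25.0% of 92 cells in EOM and 54.2% of 24 in TA, and in TA the interval of 32.8% to 74.4% holds the share of all cells. Dll1 was in 17.5% of Myog-only cells against 2.28% of Pax7-only cells of EOM, and in 15.3% against 4.09% in TA. At least 1 of Notch3, Hey1 and Heyl was in 12.0% of Myog-only cells against 50.7% of Pax7-only cells of EOM, and in 7.87% against 25.7% in TA. Dll1 was held together with at least 1 of these 3 in 59 of 5411 EOM cells and 39 of 4152 TA cells, given as counts with no reading, since the number to expect from the separate shares was not computed. Free RNA in the droplets can also give single UMIs, no muscle cell in these libraries is known to lack all of these genes, and its part in these shares was not tested.

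Cycling cells, taken as those with a UMI of Mki67 or Top2a at the same depth, differed mainly among Myog-holding cells. Hes1 had 38.9 CPM in cycling against 13.8 CPM in non-cycling Myog-holding cells of EOM, and 38.3 against 15.9 CPM in TA. Dll1 differed little there, with 34.2 CPM in cycling against 32.9 CPM in non-cycling Myog-holding cells of EOM, and 37.6 against 37.2 CPM in TA. These cycling cells also held less Myog, at 1795 against 3920.1 CPM in EOM and 1525 against 3428 CPM in TA. Their Pax7 was higher, at 54.2 against 18.6 CPM in EOM and 47.3 against 18.4 CPM in TA. The part of the Myog level in the Hes1 difference was not tested. In Myog-free cells Hes1 had 73.4 CPM in cycling against 63.2 CPM in non-cycling cells of EOM, and 62.1 against 58.9 CPM in TA.

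Of the other 73 pathway genes, 49 reached 5 CPM in the comparison of states in each muscle, and 2 were higher and 3 lower in EOM, 2 higher and 2 lower in TA, near the shares of all genes given above (6.70% and 7.35% in EOM, 4.75% and 3.05% in TA). Neurl1a, a ubiquitin ligase that works on Notch ligands in the cell that sends the signal, had 20.3 CPM in Myog-only cells against 1.57 CPM in Pax7-only cells of EOM, and 23.3 CPM against 3.90 CPM in TA. Its folds of 12.9 (9.22 to 18.6) and 5.98 (4.40 to 8.33) lay near those of Dll1. Dtx4, a Deltex-type ubiquitin ligase that acts on Notch receptors, had 8.24 CPM in Myog-only cells against 32.4 CPM in Pax7-only cells of EOM, a fold of 0.254 (0.226 to 0.285).

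Over 10 pools (the 2 quiescent libraries and the 4 states of each activated library), the genes whose log2(CPM + 1) was most like that of a member were ranked among 6769 genes by Pearson's r, as a description, since pools of 1 library share cells of the same culture. Neurl1a (r = 0.955) was the third most like Dll1, after Abhd8 and Serinc2. Dtx4 (r = 0.977) was the third most like Heyl, after Fzd4, a Wnt receptor, and Itpripl2. Notch3 (r = 0.980) was among the 5 genes most like Notch1, led by Tspan12 (r = 0.986), and Card19 (r = 0.997) led those most like Hes6.

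The third comparison set EOM against TA. In quiescent cells, Dll1 and Hes6 were at least 2-fold higher in EOM and no member was as much lower, against 4.82% of all genes higher and 2.65% lower. Dll1 was 2.96-fold (2.29 to 3.87) and Hes6 2.65-fold higher (2.18 to 3.23). Notch2 was 1.63-fold, Hes1 1.47-fold and Heyl 1.49-fold higher in EOM, though Hes1 turned to 0.694-fold among cells with at most 5% mitochondrial UMIs, and Jag1 was at 0.620-fold (0.552 to 0.697). Notch3 at 0.975-fold and Hey1 at 1.01-fold had intervals that hold 1.

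In activated cells, Notch3 and Hey1 were at least 2-fold higher in EOM, at 2.76-fold (2.58 to 2.95) and 2.73-fold (2.54 to 2.95), and no member was as much lower, against 2.97% of all genes higher and 1.37% lower. Notch1 at 1.91-fold and Heyl at 1.88-fold were just short of the call. Jag1 was 2.77-fold higher in EOM (2.28 to 3.38) at levels under 5 CPM. Dll1 at 0.701-fold (0.665 to 0.740) and Hes6 at 0.535-fold (0.529 to 0.540) were lower in EOM, the reverse of quiescent cells. The EOM culture also held fewer Myog-only cells, 50% against 60.6% in TA, and more Pax7-only cells, 17.8% against 10.0%.

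Set within 1 state, the muscles still stood apart for some members, but the Pax7-only pools also differed in markers of differentiating muscle. Acta1 had 929.5 CPM in Pax7-only TA cells against 90.7 CPM in Pax7-only EOM cells. Mylpf (756 against 156 CPM) and Tnnt2 (182 against 6.56 CPM) went the same way. Of these markers only Actc1 (14.3 against 43.7 CPM), Mymx (4.18 against 6.83 CPM) and Ttn (403 against 436 CPM) went the other way. The part of these differences in the folds below was not tested. Among Pax7-only cells, Jag1 (2.35-fold) and Hey1 (2.61-fold) were at least 2-fold higher in EOM and Dll1 (0.297-fold) and Hes6 (0.329-fold) lower, against 3.49% of all genes higher and 1.99% lower. That Dll1 fold rests on 56 UMIs in EOM and 91 in TA and was 0.645 when presence was set at 2 UMIs. Among Myog-only cells, Notch3 (2.25-fold) was the 1 member at least 2-fold higher in EOM and none was lower, against 2.38% and 1.29% of all genes. The Notch3 fold was 1.74 when presence was set at 2 UMIs, and the Jag1 fold of Pax7-only cells was 1.80 without Mki67 or Top2a cells. Dll1 in Myog-only cells was at 0.953-fold (0.899 to 1.01), an interval that holds 1, so its lower level in the whole EOM culture was not seen among these cells. Hes6 was at 0.721-fold (0.712 to 0.729) there. Notch3 was 1.89-fold and Heyl 1.59-fold higher in EOM among Pax7-only cells.

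Pdgfrb, a receptor gene that marks mural cells of vessels, which also use Notch3 and Hey1, stood at 64.1 CPM in Pax7-only cells of EOM against 3.53 CPM in those of TA. The 7 mural markers other than Des, which muscle makes itself, summed to 68.4 CPM in Pax7-only EOM cells against 9.39 CPM in Pax7-only TA cells, with 6 and 4 of the 7 detected. Pdgfrb alone made up nearly all of that EOM sum. Cspg4, another of the 7, went the other way, at 3.19 CPM in Pax7-only EOM cells against 5.58 CPM in Pax7-only TA cells. Over whole libraries the 7 markers summed to 34.8, 10.7, 14.8 and 12.4 CPM in activated EOM, activated TA, quiescent EOM and quiescent TA. In activated EOM, Pdgfrb alone stood at 30.8 CPM. The defining mural markers Rgs5, Myh11 and Kcnj8 stood at 0.854, 0.0449 and 0 CPM in Pax7-only EOM cells. Of the 10 endothelial markers, which summed to 9.04, 6.93, 47.2 and 27.6 CPM in the 4 libraries in the same order, Egfl7 made up the most in the activated and Tek in the quiescent libraries.

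**Figure D4:**
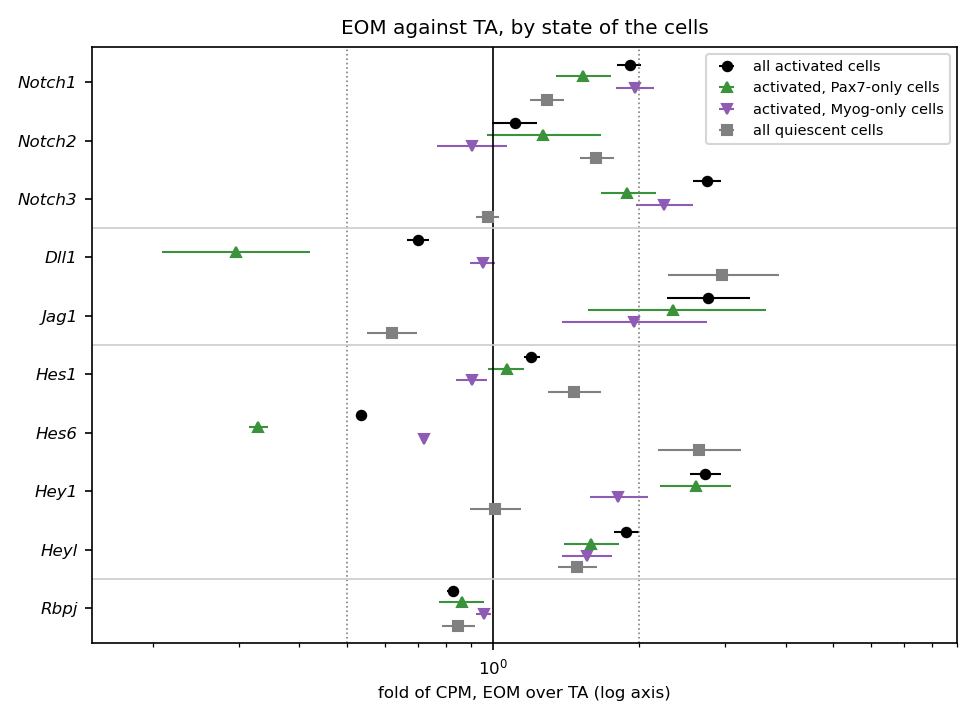
Fold of CPM of EOM over TA (log axis) for each member in all activated cells, Pax7-only and Myog-only activated cells, and all quiescent cells, with exact 95% intervals that cover counting error; dotted lines mark 2-fold. Dll1 and Hes6 lie right of 1 in quiescent cells and left of it in activated cells, and Jag1 the other way round.

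The fourth comparison looked inside the quiescent libraries. Quiescent cells were cut into tertiles by the summed UMIs of 12 early response genes (of the Fos, Jun and Egr kind, which cells switch on soon after many stimuli) at 2000 UMIs a cell. Hes1, Heyl and Hes6 were higher where early response genes were high, in both muscles. Hes1 had 19.6, 26.0 and 81.6 CPM from the low to the high tertile of EOM, and 9.26, 10.1 and 71.3 CPM in TA. Its fold of high over low was 4.16 (3.41 to 5.12) in EOM and 7.70 (5.77 to 10.5) in TA, and nearly all of it lay in the last step. Heyl had 38.4, 71.6 and 112 CPM in EOM and 21.9, 47.3 and 84.1 CPM in TA, a more even climb. Hes6 had 7.94, 23.4 and 44.1 CPM in EOM and 3.70, 8.50 and 17.1 CPM in TA.

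In the high against the low tertile, 4 members were at least 2-fold higher and none lower in EOM, against 6.05% and 6.04% of all genes, and 3 were higher and none lower in TA, against 10.6% and 7.71%. The fourth of EOM was Dll1, with 7.31, 13.7 and 25.3 CPM, whereas in TA it had 3.53, 6.27 and 5.70 CPM. The receptors differed less, with Notch1 at 1.53-fold in EOM and 1.64-fold in TA and Notch3 at 1.39-fold and 1.77-fold. Jag1 was lower in the high tertile, at 0.798-fold (0.641 to 0.992) in EOM and 0.763-fold (0.629 to 0.923) in TA. Pax7 moved with the tertiles as well, from low to high at 168, 302 and 417 CPM in EOM and 185, 375 and 665 CPM in TA. Median depth was 4295 UMIs in the high against 5018 UMIs in the low tertile of EOM, and 4464 against 5576 UMIs in TA, and its part in the result was not tested.

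**Figure D5:**
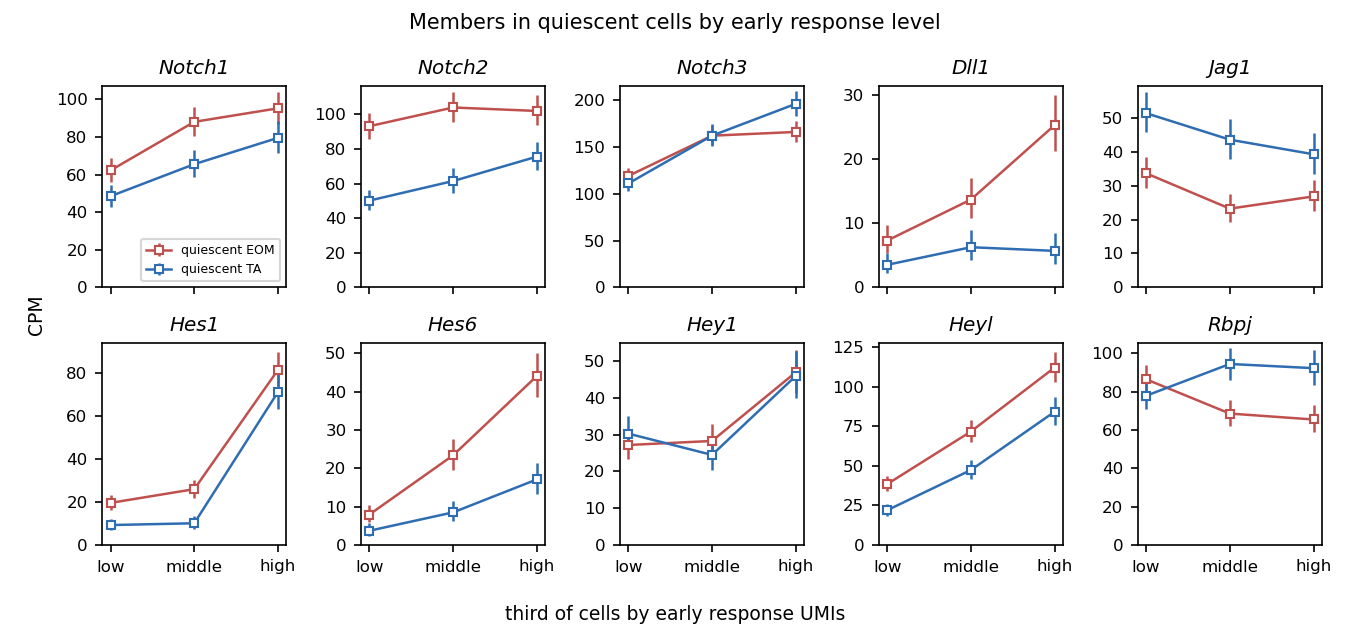
CPM of each member (linear axes from 0, 1 panel a gene) in quiescent EOM and TA cells by tertile of early response UMIs, with exact 95% Poisson intervals. Hes1 stands at 81.6 and 71.3 CPM in the high tertile and at 26.0 CPM or less in the other 2.

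The members lie on 7 chromosomes of GRCm38 in GENCODE M21. Notch3 (17:32120820-32166852) and Dll1 (17:15367354-15376872), both on the minus strand, and Rbpj (5:53466152-53657362), on the plus strand, are overlapped by counted genes on the opposite strand. The overlapping genes stood at 0.630 CPM or less in every library, and whether strand was used in counting is not given in the sources used here.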

How the data were processed

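Each library's deposited matrix gives unnormalized UMI counts of genes by barcodes. The submitters' processing notes list Cell Ranger 3.0.2 and the build mm10. How barcodes were called as cells is not given in the sources used here. Of 31055 feature IDs, 30934 matched GENCODE M21.

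Cells had at least 500 genes and at most 10% mitochondrial UMIs. The highest scrublet scores were removed by rank, 0.8% per 1000 barcodes, and each library was clustered (scanpy 1.11.5, igraph 0.11.9). A cluster was named non-muscle from 3 markers that were 4-fold higher and held by 20% of its cells, a share set after a first clustering in which a few stray cells had named a muscle cluster. In quiescent TA, 14 endothelial-like cells were left out.

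Counts were summed over cells and scaled to CPM. Folds carry exact 95% intervals (scipy 1.17.1), and log2 values use a pseudocount of 1 CPM. With 1 library a group, no test was made. The intervals were run on simulated Poisson counts, which checks the calculation only. Those counts hold no spread between cells, cultures or animals, so the run cannot show whether the intervals cover such spread. All 10 members are shown in every figure, and the text names some or all of them in each comparison. For the other 73 pathway genes, a rule listed up to 4 per direction with the largest fold at 20 CPM or more. The text names a choice from that list, and Jag2, Lfng and Dlk2 from outside it. Likeness names up to 5 genes. Members and lists were chosen with earlier results of these data known. Alternatives were scaling (edgeR 4.0.16 TMM, median of ratios), means over cells, mitochondrial and doublet limits, minimum, pseudocount, size of call, and how states were set. Promoters came from RefSeq.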

Additional observations from a re-analysis of the deposited data

Results flagged for a closer look

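For 3 members the EOM to TA fold pointed one way in activated cells and the other way in quiescent cells. With 1 library a group, none of these differences was tested. Dll1 was at 0.701-fold in activated EOM over activated TA and 2.96-fold in quiescent EOM over quiescent TA. Hes6 was at 0.535-fold in activated and 2.65-fold in quiescent cells. Jag1 went the other way, at 2.77-fold in activated and 0.620-fold in quiescent cells. Within activated Myog-only cells the fold of Dll1 was 0.953, and within Pax7-only cells it was 0.297.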

How the results depend on the processing

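No paired analysis was possible because each group had 1 library. Of 1000 member values under an alternative, 723 stayed within the counting interval and 277 moved further, and no value that was at least 2-fold apart changed sign. Of 224 counts of members apart, 202 stayed within 1.5 times. The others are these. In quiescent EOM over TA, 1 member was lower with a 5% mitochondrial limit or a 1.5-fold call, against 0, and 1 was higher at a minimum of 20 CPM, against 2. In activated EOM over TA, 4 were higher, against 2, and 1 lower, against 0, with the 5% limit or the 1.5-fold call. In Myog-only over Pax7-only TA cells, 1 was higher and 3 lower with the 5% limit, against 3 and 5. In Pax7-only EOM over TA, 1 was lower, against 2, on thinned UMIs, with presence at 2 UMIs or at 20 CPM, and 1 was higher at 20 CPM and 5 with the 1.5-fold call, against 2. In Myog-only EOM over TA, against 1 higher, there were 4 with the 5% limit or the 1.5-fold call, 3 with doublets kept, 2 on thinned UMIs, without Mki67 or Top2a cells or with states at 2000 UMIs, and 0 at 20 CPM. In the high over the low tertile of quiescent TA, 8 were higher with the 1.5-fold call, against 3. The cause was not tested. TMM scaling moved the median log2 ratio of all genes by 0.41 in EOM and 0.29 in TA for activated over quiescent cells, so changes there are relative to the library total. Leaving out the 20% of cells with the fewest UMIs and the 1.5-fold call outside the library comparisons were added after the data were seen. No library could be left out, since each group has 1, and spread between animals was not measured.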

Other observations

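Activated cells with a Dll1 UMI were set beside cells without one within each Myog level, a split chosen after the data were seen and given with no test. At 0, 1, 2 to 3, 4 to 7 and 8 or more Myog UMIs, Hes6 had 324, 422, 542, 669 and 861 CPM in Dll1-holding EOM cells, against 158, 208, 363, 559 and 938 CPM in the other EOM cells. In TA it had 668, 665, 961, 859 and 1170.3 CPM in Dll1-holding cells, against 517, 622, 761, 911 and 1244 CPM in the others. Hes6 was thus higher in Dll1-holding cells at the lower Myog levels and lower at 8 or more in both muscles. In TA Hes6 was already lower at 4 to 7, but with intervals that overlap (814 to 905 against 891 to 931 CPM). The TA intervals of Hes6 overlapped at 1 Myog UMI as well (610.4 to 724 against 608 to 636 CPM). Heyl had 38.9, 21.7, 23.6, 19.0 and 4.71 CPM in Dll1-holding EOM cells, against 39.7, 39.9, 35.5, 21.5 and 4.37 CPM in the others, with intervals that overlap at each of the 5 levels. The Dll1-holding EOM cells numbered 40, 22, 28, 53 and 396. Myog itself also differed within the levels. From the lowest to the highest level it had 93.8, 252, 676, 1488 and 3851 CPM in Dll1-holding EOM cells. The other EOM cells had 48.8, 125, 390.0, 1179 and 4046 CPM of Myog. In TA it had 106, 276, 651, 1361 and 3381 CPM in Dll1-holding cells, against 63.4, 187, 499, 1116 and 3671 CPM in the others. The part of this in the Hes6 and Heyl levels was not tested.

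Hes1 moved with the depth of quiescent cells. From the quintile with the fewest UMIs to that with the most, it had 84.8, 52.7, 43.4, 27.5 and 23.0 CPM in quiescent EOM and 84.2, 32.6, 16.7, 18.9 and 15.6 CPM in quiescent TA. In activated cells the quintiles of EOM ran from 38.7 to 52.8 CPM the other way. Notch2 was highest in the shallowest quintile of activated cells, 11.9 CPM in EOM and 10.1 CPM in TA, and at 6.92 CPM or less in the other quintiles of both. Dlk2, a Delta-like gene, had 5.35 CPM in activated EOM and 10.9 CPM in activated TA and no UMI in either quiescent library, where a count of 0 allows up to 0.172 CPM in EOM and 0.195 CPM in TA.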
